A study of Caenorhabditis elegans with 9 samples.

Results

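The genes described here encode general protein-folding factors, namely J-domain proteins, the subunits of the chaperonin CCT and of prefoldin, and a small number of factors that work with HSP70 and HSP90. They were taken by name: every listed gene whose WormBase name begins with *dnj-*, *cct-* or *pfd-* followed by a number, together with *hsp-1*, *hsp-90*, *hsp-110*, *sti-1*, *unc-45*, *chn-1* and *bag-1*. The rule gave 50 of the 46875 genes listed, of which 29 were *dnj* genes, 8 *cct* genes, 6 *pfd* genes and 7 genes named singly. The rule used names and no expression value, but it was set with earlier results of these data known. RNA-seq had been carried out on polyA RNA of whole *C. elegans* at the late L2 larval stage, to find genes whose transcripts depend on SMA-3, a Smad transcription factor of the DBL-1/BMP pathway, or on SMA-9, a Schnurri-type zinc finger factor that works with it. The 3 genotypes were the N2 wild-type strain, *sma-3(wk30)* and *sma-9(ok1628)*, with 3 biological replicates each, and neither mutant carried a second mutation or a transgene by its label. According to the methods, both alleles are strong loss-of-function or null, and all animals were synchronized, kept at 20 °C and collected without a stress treatment being named. The sample labels give 21% oxygen for every library. Each mutant genotype is represented by 1 allele.

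HSP70 proteins bind exposed stretches of unfolded proteins in a cycle driven by ATP. J-domain proteins deliver clients to HSP70 and stimulate ATP hydrolysis, and nucleotide exchange factors such as Hsp110 and BAG proteins then allow the client to leave. Clients such as kinases and hormone receptors can pass from HSP70 to HSP90 through the adaptor Hop, while actin and tubulin are folded inside the CCT ring, to which prefoldin brings them. The name rule reached beyond the cytosol. By what is known of these proteins or their relatives in other animals, *dnj-7*, *dnj-20*, *dnj-27* and *dnj-29* act at the endoplasmic reticulum (ER), and *dnj-10* and *dnj-21* in mitochondria.

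Values are given as CPM, that is, counts of a gene per 1000000 reads of the normalized library size, in the order of replicates 1, 2 and 3. The libraries held 58889275 to 82735807 reads on genes, so that 3 reads corresponded to 0.035 to 0.0503 CPM, and every one of the 50 genes passed the filter of at least 1 CPM in at least 3 libraries. The least covered value among them, in *dnj-26*, rested on 64 reads. The *sma-3* transcript was lower in *sma-3* libraries (12.6, 13.3 and 14.2 CPM) than in wild-type (26.5, 21.4 and 22.4), whereas the *sma-9* transcript was higher in the *sma-9* libraries (173, 213 and 219 CPM) than in wild-type (87.6, 89.4 and 119 CPM, log2 fold change 1.03, SE 0.13, adjusted p = 0.00202). These last libraries are therefore called by their label throughout. The numbers in the library names were 14 to 16 for *sma-3* and 6 to 10 for the other genotypes, so whatever they mark cannot be told apart from the *sma-3* genotype.

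One set of genes separated the libraries within a genotype. Heat-inducible chaperones (*hsp-70*, *F44E5.5* and 4 *hsp-16* genes, with *F44E5.4* at 0 reads in every library) summed to 225, 85.5 and 4.39 CPM for wild-type, 5.15, 4.78 and 4.45 for *sma-3* and 102, 71.4 and 45.1 for the labelled *sma-9* libraries. Wild-type replicate 3 had the lowest level among wild-type libraries for 6 of the 6 genes with reads, and lay near *sma-3*. Reads could be shared between related genes of this list, so the levels of single genes, with the 0 of *F44E5.4*, are uncertain. None of the 6 was called in *sma-3* against wild-type by limma, beside 21.5% of all tested genes. All 6 had an unadjusted p of at most 0.05, beside 35.2% of all tested genes, and their median log2 fold change was -2.35. Against the labelled *sma-9* libraries, 2 of the 6 (*hsp-16.2* and *hsp-16.41*) were lower in *sma-3*, beside 9.1% of all tested genes. Wild-type replicate 3 was also the lowest wild-type library for 35 of the 50 folding factors (70%), against 41.8% of all tested genes. The part of this difference between libraries in the results below was not tested, and values without replicate 3 are given beside them.

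**Figure D1:**
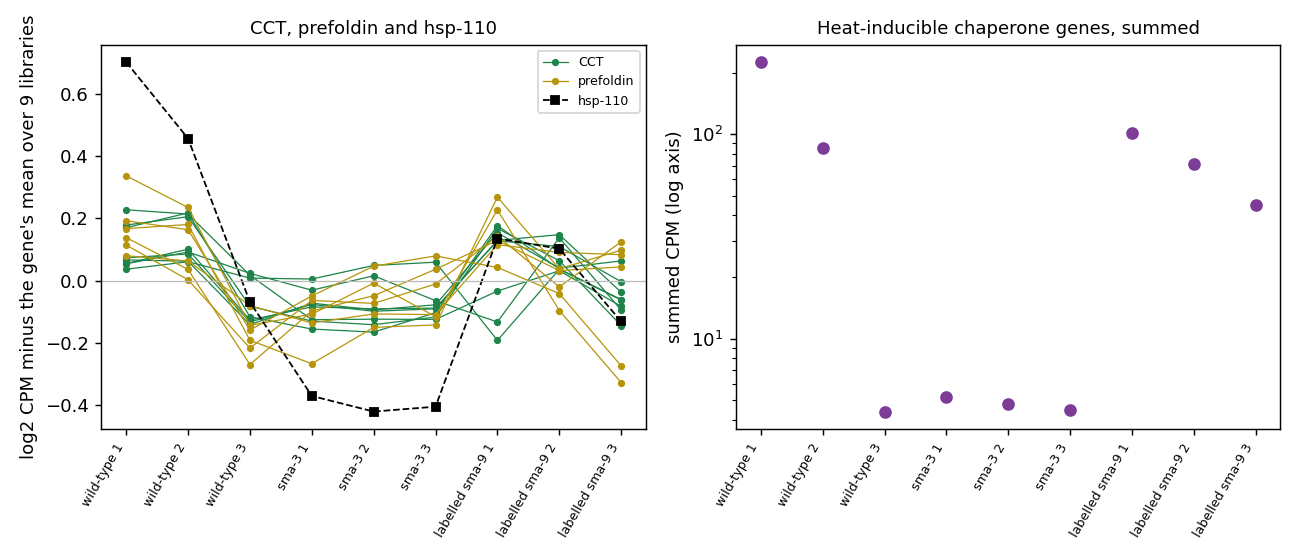
Left, log2 CPM of each *cct* and *pfd* gene and of *hsp-110* in each of the 9 libraries, minus the mean of that gene over the 9 libraries, with a line joining the points of a gene. Right, summed CPM of the heat-inducible chaperone genes in each library, on a log axis. Heat-inducible genes summed to 225 CPM in wild-type replicate 1 and 4.39 in replicate 3, and all 8 *cct* and all 6 *pfd* genes also had their lowest wild-type level in replicate 3.

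Per kilobase of exon, the 50 transcripts spanned a 1547-fold range in wild-type. The constitutive HSP70 gene *hsp-1* had the highest level, 1863 ± 186 CPM per kilobase (SD, n = 3), followed by *hsp-90* at 1049 ± 61.1. The 8 *cct* genes lay close together, from 155 CPM per kilobase for *cct-8* to 409 for *cct-5*, a 2.64-fold span with a median of 244. Prefoldin genes spanned 2.17-fold, from 77.6 for *pfd-3* to 168 for *pfd-1*. The *dnj* genes were the most unequal group. Their median was 35.3 CPM per kilobase, 6 of the 29 exceeded 100, and *dnj-26* was the lowest of all 50 at 1.2 ± 0.329. The leading *dnj* genes were *dnj-19*, *dnj-12* and *dnj-13*, which encode the DNAJA- and DNAJB-type partners of cytosolic HSP70, at 232, 228 and 228 CPM per kilobase.

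**Figure D2:**
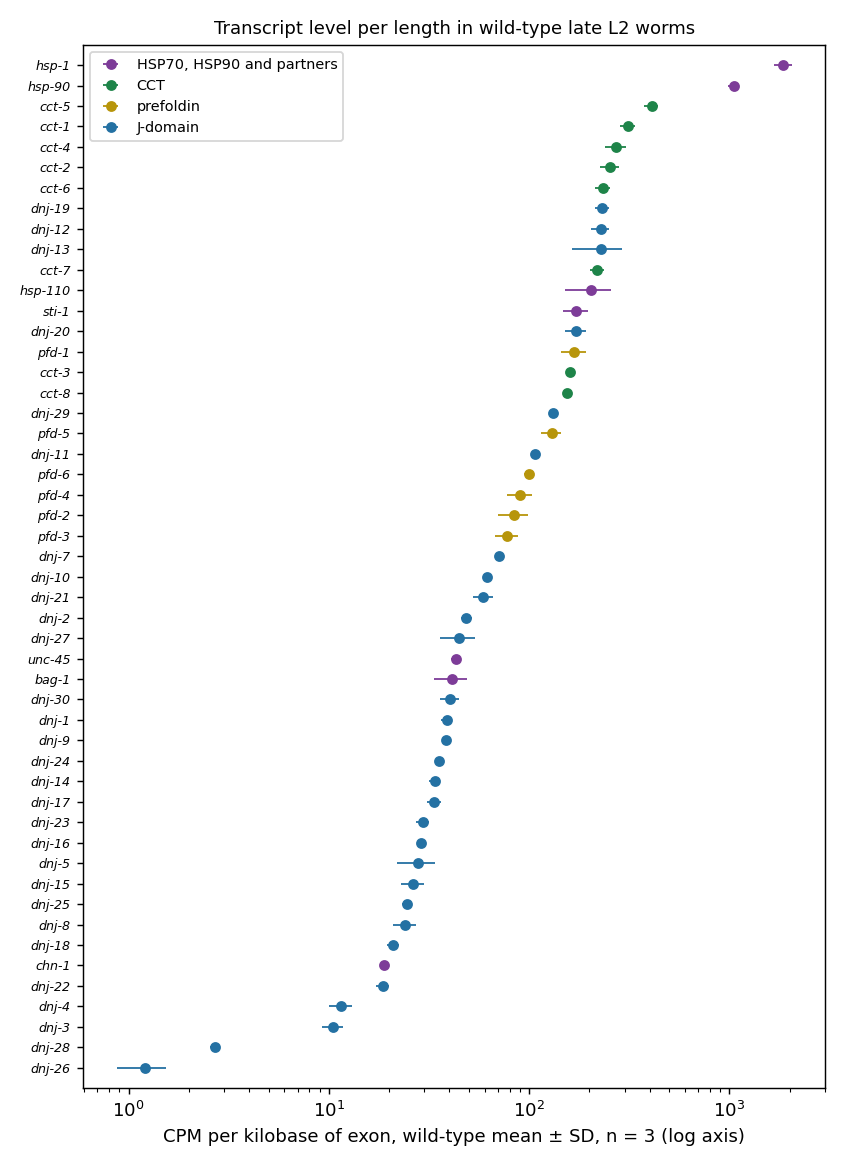
Level of each of the 50 transcripts in wild-type, as CPM per kilobase of exon on a log axis (points, mean of 3 libraries; bars, SD), coloured by group. *hsp-1* and *hsp-90* stand above all others, the *cct* and *pfd* genes each form a narrow band, and the *dnj* genes run from 232 to 1.2.

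In *sma-3* mutants, 14 of the 50 transcripts were lower than in wild-type and 1 was higher, at an adjusted p of at most 0.05 (limma on log2(CPM + 1), Benjamini-Hochberg over all 13105 tested genes). This is 28% lower and 2% higher, and 30% in either direction, beside 12.2% lower, 9.36% higher and 21.5% in either direction among all tested genes. The median log2 fold change of the 50 was -0.20 and that of all tested genes -0.01. The 3 *sma-3* libraries lay below all 3 wild-type libraries for 25 genes and above them for 2, beside 23.5% and 18.0% of all tested genes, 41.4% in either direction. At an unadjusted p of at most 0.05, 22 of the 50 passed, beside 35.2% of all tested genes. The calls fell mostly among J-domain genes: 11 *dnj* genes were lower and 1 was higher of 29, against 1 lower of 8 *cct* genes, 0 of 6 *pfd* genes and 2 lower of the 7 genes named singly. Whether these shares differ between the groups was not tested. For 43 of the 50 genes the *sma-3* mean differed from the wild-type mean by under 25%. In RNA of whole animals, fewer cells of a type and less RNA per cell cannot be told apart.

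The count of lower genes depended on single libraries. It was 8 without wild-type replicate 1, 8 without wild-type replicate 2, 23 without wild-type replicate 3 (beside 14.2% of all tested genes), 8 without *sma-3* replicate 1, and 5 without *sma-3* replicate 2 or without *sma-3* replicate 3. It was also 8 when the deposited normalization was replaced by equal library totals, and 3 (*hsp-110*, *dnj-27* and *dnj-13*) with a 1.5-fold minimum. Except for the fit without wild-type replicate 3, the shares of all tested genes are not given here. Those counts can therefore not be told apart from a change in calls over all genes. Of the 15 calls, 4 held under every alternative other than this minimum and with every library left out in turn, namely *dnj-10*, *dnj-11*, *dnj-17* and *dnj-30*, all lower.

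**Figure D3:**
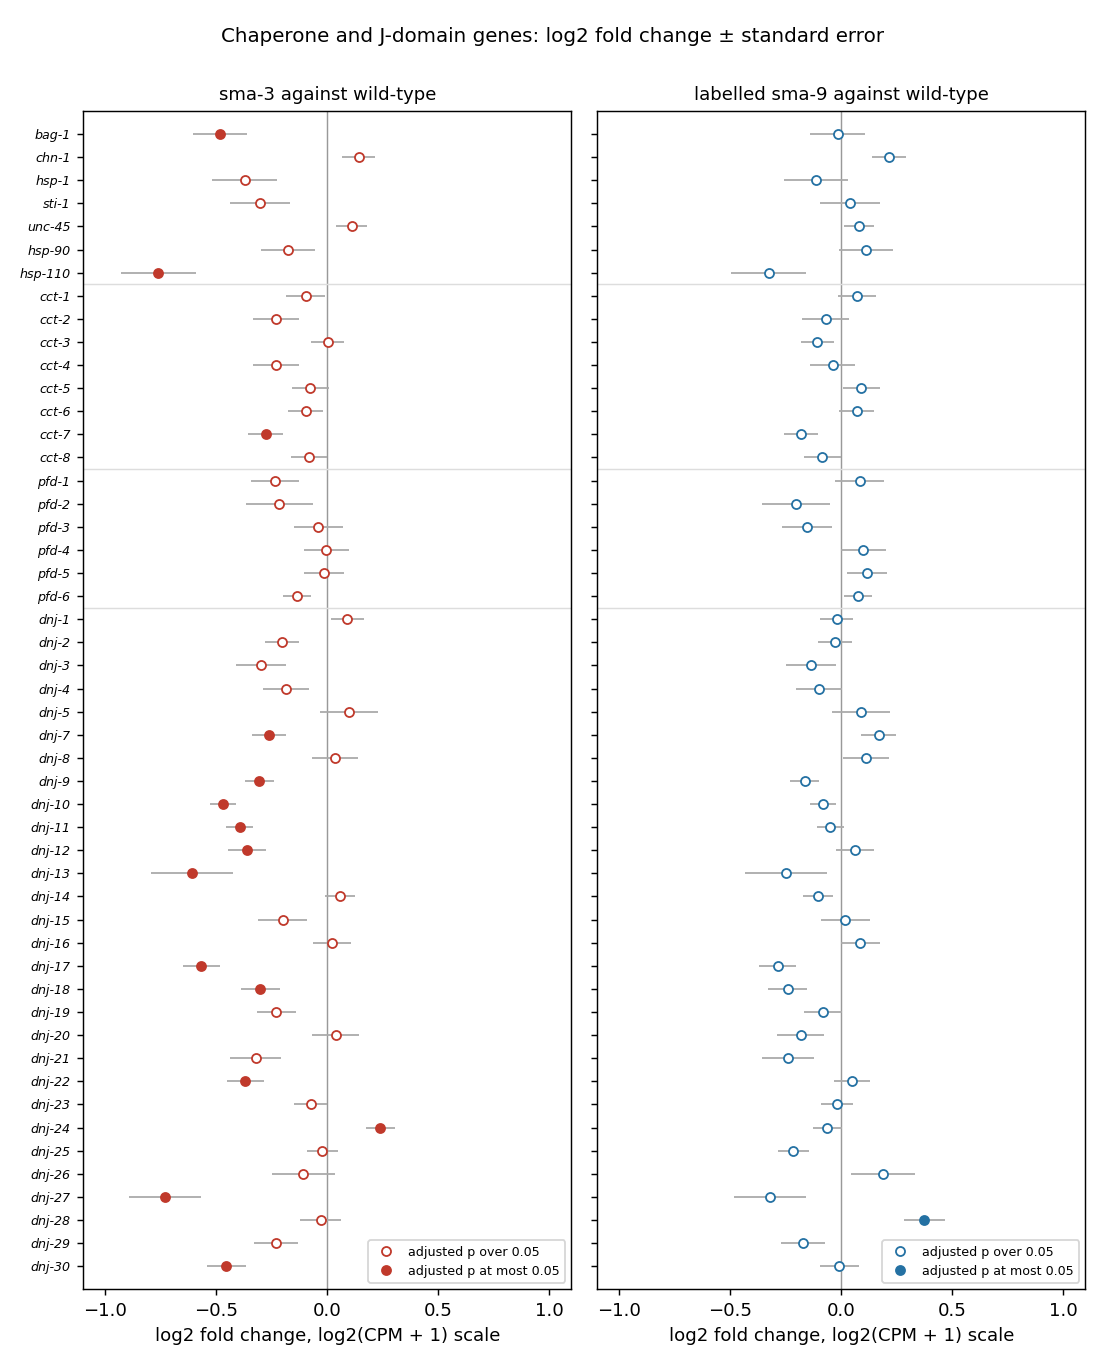
Log2 fold changes on the log2(CPM + 1) scale (points) with standard errors (bars) for all 50 genes, in *sma-3* and in the labelled *sma-9* libraries, each against wild-type, with called genes filled. In *sma-3* the called genes run from -0.76 (*hsp-110*) to 0.24 (*dnj-24*), and in the labelled *sma-9* libraries only *dnj-28* is filled, at 0.37.

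Among the cytosolic HSP70 machinery, the exchange factor genes *hsp-110* and *bag-1* were called lower in *sma-3*. A further BAG-domain gene, *unc-23*, described below, was not called. The HSP70 gene itself did not pass the threshold, and whether its change differed from theirs was not tested. *hsp-110* (chromosome III, 8443910 to 8446909, WBcel235), which encodes the Hsp110 exchange factor, was at 680.4, 574 and 398 CPM for wild-type, 323, 312 and 316 for *sma-3* and 459, 449 and 382 for the labelled *sma-9* libraries. Every *sma-3* library was below every wild-type library, the mean was 42.5% lower, and the call was made at log2 fold change -0.76, SE 0.17, adjusted p = 0.0136. Wild-type replicate 3 lay 73.7% of the way from the mean of the other wild-type libraries to the *sma-3* mean, and the call was lost without *sma-3* replicate 2 or 3. *bag-1* (chromosome I, 6563629 to 6564451), a BAG-domain exchange factor, was at 34, 31 and 23.3 CPM for wild-type, 20.4, 20.1 and 20.9 for *sma-3* and 29.1, 29.7 and 27.4 for the labelled *sma-9* libraries. The *sma-3* libraries were below both other genotypes, with log2 fold change -0.48, SE 0.12, adjusted p = 0.0225 against wild-type. Here wild-type replicate 3 covered 76.6% of the gap, and leaving out wild-type replicate 1 or 2 or any *sma-3* library ended the call.

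The HSP70 gene *hsp-1* (chromosome IV, 17278959 to 17281330) was at 4046, 4119 and 3418 CPM for wild-type, 3013, 2959 and 2941 for *sma-3* and 3827, 4006 and 2929 for the labelled *sma-9* libraries. All *sma-3* libraries lay below the wild-type range, but the fold change, -0.37 (SE 0.14), had an adjusted p of 0.0978 in limma. With quantile normalization, and without *sma-9* replicate 3, *hsp-1* was called. Reads of *hsp-1* could be shared with other HSP70 genes, whose sequences are related.

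The class B J-domain gene *dnj-13* (chromosome II, 11545701 to 11547360), whose product takes part with HSP-1 and HSP-110 in dissolving protein aggregates, was at 394, 341 and 219 CPM for wild-type, 212, 195 and 199.8 for *sma-3* and 250.1, 289.7 and 243 for the labelled *sma-9* libraries. Wild-type replicate 3 lay just above the highest *sma-3* library. The mean was 36.4% lower in *sma-3* (log2 fold change -0.61, SE 0.18, adjusted p = 0.0438), 89.98% of the gap was covered by wild-type replicate 3, and the call was lost on leaving out any library other than wild-type replicate 3, and under 4 other settings. The DNAJA-type gene *dnj-12* (chromosome I, 14756904 to 14758790) was at 399, 410.0 and 335 CPM for wild-type, 298, 298 and 289 for *sma-3* and 386, 403 and 399 for the labelled *sma-9* libraries. It was lower in *sma-3* by 22.6% (log2 fold change -0.36, SE 0.08, adjusted p = 0.0164), while the labelled *sma-9* libraries lay near wild-type replicates 1 and 2. The call for *dnj-12* was lost under quantile normalization and without wild-type replicate 1 or 2 or any *sma-3* library. The other DNAJA-type gene, *dnj-19*, was at 375, 369 and 324 CPM for wild-type, 303, 305 and 301 for *sma-3* and 336, 366 and 307 for the labelled *sma-9* libraries. Its *sma-3* libraries were all below wild-type, but it was not called (log2 fold change -0.23, SE 0.09, adjusted p = 0.0908).

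**Figure D4:**
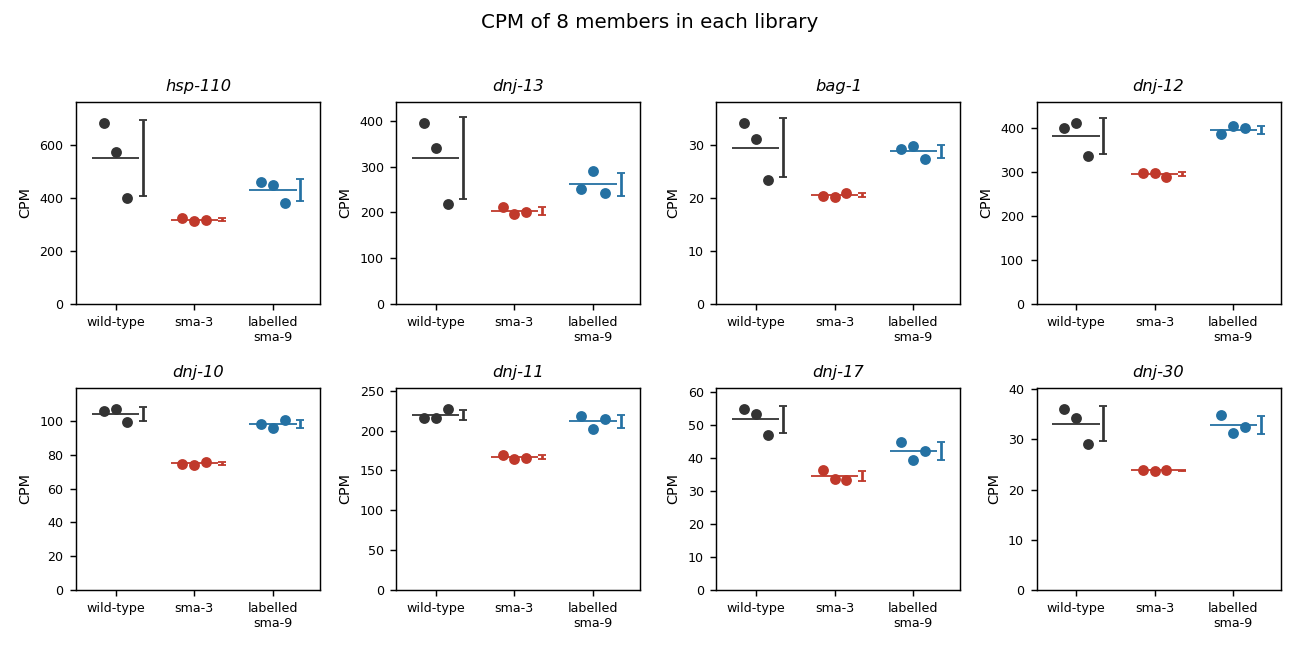
Levels in CPM (linear axes from 0) of 8 genes in each of the 9 libraries, a point per library in the order of replicates 1, 2 and 3, with a horizontal line at the mean of each genotype and a bar of the mean ± SD (n = 3). For *hsp-110*, *dnj-13* and *bag-1* wild-type replicate 3 lies near the *sma-3* libraries, and for *dnj-10*, *dnj-11* and *dnj-17* the 3 wild-type libraries lie together above them.

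Of the HSP90 branch, no member was called. *hsp-90* was at 2566, 2549.8 and 2309 CPM for wild-type, 2255, 2154 and 2149.6 for *sma-3* and 2591, 3104 and 2362 for the labelled *sma-9* libraries. The *sma-3* libraries were all below wild-type by a small margin (log2 fold change -0.18, SE 0.12, adjusted p = 0.333). Replicates 1 and 2 of the labelled *sma-9* libraries lay above every wild-type library, and replicate 3 within the wild-type range. *sti-1*, which encodes the Hop adaptor between HSP70 and HSP90, was at 210.4, 198 and 158 CPM for wild-type, 154, 155 and 146 for *sma-3* and 221, 204 and 159 for the labelled *sma-9* libraries, with log2 fold change -0.30, SE 0.14, adjusted p = 0.145 in *sma-3*. Against wild-type, *sti-1* was called lower only when wild-type replicate 3 was left out. Against the labelled *sma-9* libraries it was called lower in *sma-3* only with equal totals and without *sma-9* replicate 3. *unc-45*, encoding the chaperone of muscle myosin, had overlapping ranges in the 3 genotypes, at 141, 156 and 149 CPM for wild-type, 153, 162 and 166 for *sma-3* and 149, 162 and 159 for the labelled *sma-9* libraries. The 95% interval of its log2 difference between *sma-3* and wild-type ran from -0.05 to 0.26. *chn-1*, encoding the ubiquitin ligase CHIP that binds HSP70 and HSP90, was at 22.3, 21.5 and 20.3 CPM for wild-type, 22.4, 24 and 24.6 for *sma-3* and 23.7, 25.2 and 25.9 for the labelled *sma-9* libraries. Its *sma-3* and labelled *sma-9* libraries were all above wild-type, without passing the threshold (adjusted p = 0.213 and 0.13, limma).

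Of 12 further partners of HSP70 and HSP90 and regulators of the heat shock factor HSF-1, 11 were found and tested, and 1 (9.09%) was lower in *sma-3* than in wild-type, beside 12.2% of all tested genes. This was *fkb-6*, an FK506-binding protein of the type that binds HSP90, at 237, 243 and 201 CPM for wild-type, 164, 159.6 and 158 for *sma-3* and 236, 251 and 190.2 for the labelled *sma-9* libraries (log2 fold change -0.49, SE 0.11, adjusted p = 0.0146). At an unadjusted p of at most 0.05 (limma), 6 of the 11 were lower and 1 was higher in *sma-3* than in wild-type. Beside this stood 35.2% of all tested genes in either direction. Between the mutants, 3 of the 11 (27.3%) were called lower in *sma-3*, beside 9.1% of all tested genes. None was called by limma in the labelled *sma-9* libraries against wild-type, beside 6.88% of all tested genes in either direction. There, 1 of the 11 reached an unadjusted p of at most 0.05, beside 22.2% of all tested genes. *hsf-1* itself was at 35.1, 33.8 and 42.3 CPM for wild-type, 39.4, 37.1 and 40.6 for *sma-3* and 39.9, 40.3 and 43.3 for the labelled *sma-9* libraries. These ranges overlapped (log2 fold change 0.08, SE 0.09, adjusted p = 0.584 in *sma-3*). *hsb-1*, which encodes an HSF-1 binding protein that restrains it, was at 23.4, 22.3 and 23.1 CPM for wild-type, 25.7, 25.4 and 28.5 for *sma-3* and 24.2, 24.1 and 25.7 for the labelled *sma-9* libraries (adjusted p = 0.0822 in *sma-3*, limma).

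For 4 J-domain genes the call in *sma-3* against wild-type survived the loss of any library. *dnj-10* (chromosome III, 8631165 to 8633565), related to the mitochondrial J-domain protein TID1, was at 106, 107 and 99.6 CPM for wild-type, 74.7, 74.1 and 75.9 for *sma-3* and 98.4, 95.9 and 100.4 for the labelled *sma-9* libraries. Its *sma-3* mean of 74.9 ± 0.905 CPM (SD, n = 3) was 28% below the wild-type mean of 104 ± 3.96 (log2 fold change -0.47, SE 0.06, adjusted p = 0.00124). *dnj-11* (chromosome IV, 6585871 to 6588186), a relative of MIDA1/ZRF1 that acts in asymmetric neuroblast division in the worm, was at 216, 216 and 227 CPM for wild-type, 169, 165 and 166 for *sma-3* and 218, 203 and 215 for the labelled *sma-9* libraries. The *sma-3* libraries lay 24% below wild-type on average (log2 fold change -0.39, SE 0.06, adjusted p = 0.00295), with wild-type replicate 3 the highest of the 9 libraries.

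*dnj-17* (chromosome III, 13390850 to 13393339) was at 54.8, 53.5 and 47 CPM for wild-type, 36.4, 33.8 and 33.5 for *sma-3* and 44.9, 39.6 and 42.1 for the labelled *sma-9* libraries. Its 3 genotypes did not overlap, with *sma-3* lowest (log2 fold change -0.57, SE 0.08, adjusted p = 0.00218) and the labelled *sma-9* libraries between, at a log2 fold change of -0.29 against wild-type that was not called (adjusted p = 0.0756, limma). *dnj-30* (chromosome I, 2718027 to 2721475) was at 36, 34.3 and 29.2 CPM for wild-type, 24, 23.7 and 23.8 for *sma-3* and 34.8, 31.3 and 32.4 for the labelled *sma-9* libraries. The *sma-3* libraries were nearly identical to one another and below all others (log2 fold change -0.46, SE 0.09, adjusted p = 0.00727).

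The 4 J-domain genes known to act at the ER differed among themselves, 2 of them being lower in *sma-3*. *dnj-27* (chromosome I, 11877803 to 11887278), whose product is the ERdj5-type J-domain protein with thioredoxin domains, was at 97.4, 101 and 138 CPM for wild-type, 77.2, 65.6 and 58.1 for *sma-3* and 100.3, 93.2 and 74.6 for the labelled *sma-9* libraries. It had the second largest decrease of the 50, 40.4% (log2 fold change -0.73, SE 0.16, adjusted p = 0.0134), and wild-type replicate 3 was its highest library. The call was lost without *sma-3* replicate 2 or 3. *dnj-7* (chromosome X, 7194564 to 7198291), encoding the P58IPK-type ER protein, was at 138, 134 and 142 CPM for wild-type, 117, 111 and 118 for *sma-3* and 152, 172 and 144 for the labelled *sma-9* libraries, with all *sma-3* libraries below all others (log2 fold change -0.26, SE 0.08, adjusted p = 0.0393). That call was lost without the filter, with equal totals, with quantile normalization, with the replicate number as a block and on leaving out any wild-type or *sma-3* library. *dnj-20*, the ERdj3 type, was at 368, 353 and 439 CPM for wild-type, 392.4, 383 and 411 for *sma-3* and 298, 358 and 365 for the labelled *sma-9* libraries, and *dnj-29*, the SEC63 type that serves translocation into the ER, at 347, 377 and 352 CPM for wild-type, 302, 313 and 302 for *sma-3* and 369, 311 and 279 for the labelled *sma-9* libraries. Neither was called in *sma-3* (adjusted p = 0.84 and 0.133, limma). The *dnj-29* libraries of *sma-3* were nevertheless all below wild-type, and *dnj-29* was called lower in the fit with *sma-3* and wild-type only and without *sma-9* replicate 1. Those of *dnj-20* overlapped with wild-type.

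*dnj-22*, *dnj-9* and *dnj-18* were the other J-domain genes called lower in *sma-3*. *dnj-22* was at 18.8, 16.3 and 18.5 CPM for wild-type, 13.4, 13.8 and 13.5 for *sma-3* and 19.4, 17.4 and 18.6 for the labelled *sma-9* libraries, with *sma-3* below both other genotypes (log2 fold change -0.37, SE 0.08, adjusted p = 0.0136). *dnj-9* was at 77.4, 82.2 and 84.8 CPM for wild-type, 66.5, 63.3 and 67.1 for *sma-3* and 69.7, 73.2 and 74.6 for the labelled *sma-9* libraries, which placed *sma-3* lowest and wild-type highest without overlap (log2 fold change -0.31, SE 0.06, adjusted p = 0.0106). *dnj-18* was at 18.9, 17.7 and 16.39 CPM for wild-type, 14.5, 12.9 and 15 for *sma-3* and 15.6, 14.3 and 14.4 for the labelled *sma-9* libraries. Both mutants were below wild-type for *dnj-18*, and only *sma-3* was called (log2 fold change -0.30, SE 0.09, adjusted p = 0.0395, and -0.24 with an adjusted p of 0.148 in the labelled *sma-9* libraries). With equal totals none of these 3 calls was made. That of *dnj-18* was also lost without the filter, with the replicate block, in the fit with *sma-3* and wild-type only, and on leaving out any library other than wild-type replicate 3 or *sma-9* replicate 1, that of *dnj-22* without *sma-3* replicate 3 and that of *dnj-9* without *sma-3* replicate 2.

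A single transcript rose. *dnj-24* (chromosome III, 5415583 to 5424083) was at 54.7, 56.6 and 52.1 CPM for wild-type, 60.6, 67 and 65.8 for *sma-3* and 52.1, 52.9 and 51.3 for the labelled *sma-9* libraries, so that every *sma-3* library exceeded every other library (log2 fold change 0.24, SE 0.07, adjusted p = 0.0312). The call was lost with the replicate block, in the fit with *sma-3* and wild-type only, and without wild-type replicate 1, wild-type replicate 3, *sma-3* replicate 2 or *sma-3* replicate 3. Of the J-domain genes with a known neuronal or vesicle role, *dnj-14*, encoding cysteine string protein, was at 38.4, 38.7 and 42.9 CPM for wild-type, 40.9, 41.5 and 42.4 for *sma-3* and 36.7, 37.2 and 37.4 for the labelled *sma-9* libraries, and *dnj-25*, encoding auxilin, at 62, 68.5 and 68.6 CPM for wild-type, 63.7, 65.5 and 66.6 for *sma-3* and 60.7, 55.2 and 55.1 for the labelled *sma-9* libraries. These levels did not pass the test in either mutant, and the labelled *sma-9* libraries were below wild-type without overlap for both (adjusted p = 0.403 and 0.108, limma). *dnj-21*, which encodes the TIM14-type component of the mitochondrial import motor, was at 27.9, 25.7 and 22 CPM for wild-type, 17.9, 20.3 and 21.6 for *sma-3* and 22.4, 18.6 and 22.5 for the labelled *sma-9* libraries (adjusted p = 0.0778 in *sma-3*). The other 10 J-domain genes (*dnj-1*, *dnj-2*, *dnj-3*, *dnj-4*, *dnj-5*, *dnj-8*, *dnj-15*, *dnj-16*, *dnj-23* and *dnj-26*) were not called in any comparison. Their log2 fold changes in *sma-3* ran from -0.30 for *dnj-3* to 0.10 for *dnj-5*, and in the labelled *sma-9* libraries from -0.14 for *dnj-3* to 0.19 for *dnj-26*.

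In *sma-3*, most CCT genes did not pass the test. Their median log2 fold change was -0.10, and 1 of the 8 was lower. This was *cct-7* (chromosome V, 1872246 to 1875505), at 518, 513 and 447 CPM for wild-type, 405, 406 and 405 for *sma-3* and 432, 452 and 417 for the labelled *sma-9* libraries (log2 fold change -0.28, SE 0.08, adjusted p = 0.0331). Its *sma-3* libraries agreed to within 1 CPM, wild-type replicate 3 covered 61.8% of the gap, and the call was lost without the filter, with equal totals, with quantile normalization, with the replicate block, and without wild-type replicate 1 or 2 or any *sma-3* library. *cct-5*, the most abundant subunit gene, was at 827, 824 and 716 CPM for wild-type, 751, 739.6 and 748 for *sma-3* and 878, 812 and 825 for the labelled *sma-9* libraries, and *cct-1* at 605, 609.8 and 524 CPM for wild-type, 545, 537 and 539.6 for *sma-3* and 628, 637 and 559.9 for the labelled *sma-9* libraries. For both, the *sma-3* libraries lay inside the wild-type range, between replicate 3 and the others. *cct-3* was at 415, 422 and 407 CPM for wild-type, 406, 419 and 422 for *sma-3* and 354, 415 and 388 for the labelled *sma-9* libraries, with a 95% interval of the log2 difference in *sma-3* from -0.17 to 0.17. *cct-8* was at 364, 374 and 357 CPM for wild-type, 344, 355 and 336 for *sma-3* and 320.1, 386 and 329 for the labelled *sma-9* libraries. It had *sma-3* libraries just below the wild-type range and an adjusted p of 0.518 (limma). *cct-2*, *cct-4* and *cct-6* had log2 fold changes of -0.23, -0.23 and -0.10 in *sma-3*, none of them called. Without wild-type replicate 3, *cct-2* and *cct-4* were called lower as well.

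Wild-type replicate 3 was the lowest wild-type library for 8 of 8 *cct* and 6 of 6 *pfd* genes. Summed over the 8 subunits, CCT transcripts came to 4234, 4291 and 3721 CPM for wild-type, 3707, 3703 and 3725 for *sma-3* and 4141, 4138 and 3823 for the labelled *sma-9* libraries. The *sma-3* libraries thus lay beside wild-type replicate 3 and below the other 5 libraries.

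No prefoldin gene was called in *sma-3*, by adjusted p or at an unadjusted p of at most 0.05, and their median log2 fold change was -0.09. *pfd-1* was at 84, 84.8 and 65.5 CPM for wild-type, 62.1, 67.4 and 67.7 for *sma-3* and 90.1, 76.8 and 80.0 for the labelled *sma-9* libraries, and *pfd-6* at 59.4, 58.7 and 53.2 CPM for wild-type, 51.1, 52.2 and 52.1 for *sma-3* and 60.9, 59.9 and 59.6 for the labelled *sma-9* libraries. These were called lower without wild-type replicate 3. *pfd-5* was at 84.8, 78.5 and 67.4 CPM for wild-type, 74.9, 74.4 and 77.7 for *sma-3* and 86.5, 77.2 and 85.4 for the labelled *sma-9* libraries, and *pfd-4* at 55.4, 51.6 and 41.7 CPM for wild-type, 47, 48.7 and 51.6 for *sma-3* and 55, 51.5 and 51.9 for the labelled *sma-9* libraries. Their *sma-3* libraries lay within the wild-type range, as did those of *pfd-2* and *pfd-3*, whose log2 fold changes were -0.22 (95% interval -0.56 to 0.13) and -0.04 (-0.29 to 0.21).

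In the labelled *sma-9* libraries, 0 of the 50 transcripts were called lower than wild-type and 1 was called higher by limma, beside 3.85% and 3.02% of all tested genes (6.88% in either direction). At an unadjusted p of at most 0.05, 5 were lower and 2 higher, beside 22.2% of all tested genes in either direction, and limma-voom on the recovered reads also gave 0 lower and 1 higher. The median log2 fold change of the 50 was -0.03, and it became 0.083 with equal library totals, which moved the median of all tested genes from 0.005 to 0.110. The groups did not overlap for 9 genes, 5 of them lower and 4 higher, beside 22.2% of all tested genes in either direction. Without wild-type replicate 3, 4 genes were called lower (*cct-7*, *dnj-13*, *dnj-17* and *hsp-110*), beside 6.48% of all tested genes.

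The gene called higher was *dnj-28* (chromosome I, 2996488 to 3001382), at 4.64, 4.23 and 4.28 CPM for wild-type, 4.41, 4.24 and 4.16 for *sma-3* and 5.52, 6.62 and 5.81 for the labelled *sma-9* libraries. The *sma-3* and wild-type libraries overlapped, and those labelled *sma-9* were above all of them (log2 fold change 0.37, SE 0.09, adjusted p = 0.0436). It was among the least abundant of the 50, and the call was lost on leaving out any library other than *sma-9* replicate 1, and under 5 other settings besides the 1.5-fold minimum.

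**Figure D5:**
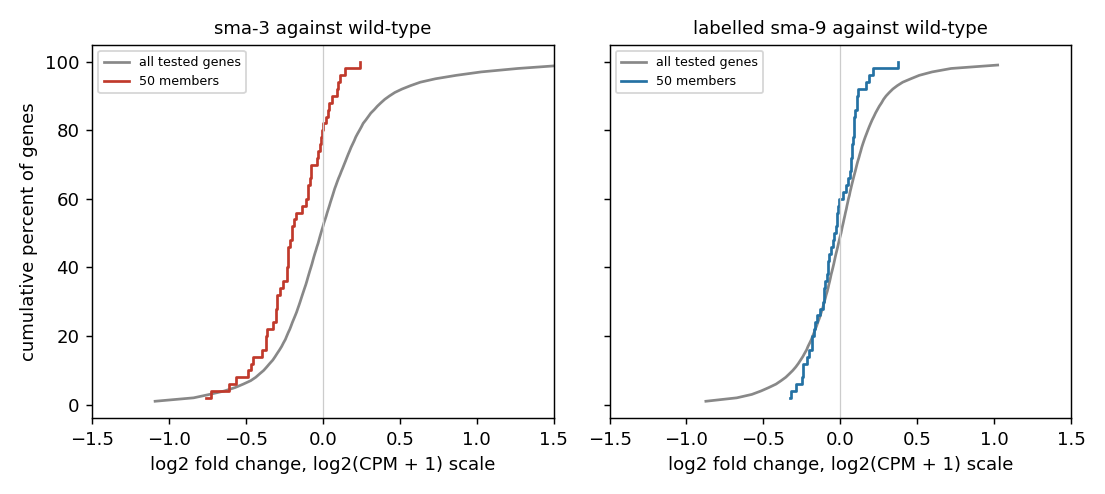
Cumulative share, in percent, of genes at or below each log2 fold change (log2(CPM + 1) scale) for the 50 folding factors and for all 13105 tested genes, in *sma-3* and in the labelled *sma-9* libraries, each against wild-type. The curve of the 50 lies to the left in *sma-3* (median -0.20 against -0.01) and near that of all genes in the labelled *sma-9* libraries (median -0.03).

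Compared directly with the labelled *sma-9* libraries, *sma-3* had 9 genes lower and 1 higher, beside 9.1% and 8.56% of all tested genes (17.7% in either direction). The groups did not overlap for 25 lower and 4 higher genes, beside 22.8% and 19.6% of all tested genes, 42.4% in either direction, and 19 reached an unadjusted p of at most 0.05, beside 32.3%. This comparison shares the *sma-3* libraries with that against wild-type, so the values stand side by side and do not add to each other. *dnj-10* was at a log2 fold change of -0.39 against the labelled *sma-9* libraries (adjusted p = 0.00302, limma) and -0.47 against wild-type. For *dnj-11* these values were -0.34 (adjusted p = 0.00593) and -0.39, for *dnj-30* -0.45 (adjusted p = 0.00955) and -0.46, and for *dnj-22* -0.42 (adjusted p = 0.00975) and -0.37. The ER gene *dnj-7* was at -0.43 against the labelled *sma-9* libraries (adjusted p = 0.00612) and at -0.26 against wild-type. These 5 calls held with every library left out in turn. *dnj-12*, *bag-1*, *dnj-28* and *dnj-17* were also lower, at -0.42, -0.47, -0.40 and -0.28 (adjusted p = 0.0104, 0.0299, 0.0184 and 0.0458), and *dnj-24* was higher at 0.30 (adjusted p = 0.0146). The calls for *dnj-12* and *dnj-24* were lost without *sma-3* replicate 3, that for *dnj-24* also without *sma-3* replicate 2, and that for *dnj-28* without *sma-3* replicate 2 or 3 or *sma-9* replicate 2. Those for *bag-1* and *dnj-17* were lost on leaving out any library of either mutant, and that for *dnj-17* also without wild-type replicate 1 or 2. Without the filter on low values *bag-1*, *dnj-28* and *dnj-17* were not called in this comparison, nor was *dnj-17* with the replicate block.

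This direct comparison also tests whether the mutants differ for genes called in *sma-3* only. *hsp-110*, at -0.76 in *sma-3* and -0.33 in the labelled *sma-9* libraries, had a difference of -0.43 that was not called (adjusted p = 0.111). *dnj-27* had a difference of -0.41 (adjusted p = 0.115), *dnj-13* of -0.36 (adjusted p = 0.21), *cct-7* of -0.10 (adjusted p = 0.434), *dnj-9* of -0.14 (adjusted p = 0.166) and *dnj-18* of -0.06 (adjusted p = 0.695). For these 6 genes a difference between the mutants was not shown in the fit to all 9 libraries. Without wild-type replicate 3, *hsp-110*, *dnj-13* and *dnj-27* were called lower in *sma-3* than in the labelled *sma-9* libraries, and *hsp-110* and *dnj-13* were also called in the fit to the mutant libraries alone. Against the labelled *sma-9* libraries the count of lower genes was 14 without wild-type replicate 3, where *pfd-1* and *pfd-6* were gained as well. The share of all tested genes was then 12.5%, and 9.1% in the fit to all 9 libraries. Without *sma-3* replicate 3 the count was 5, and the share of all tested genes for that fit is not given here.

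The spread between replicates was narrower in *sma-3* than elsewhere. The median coefficient of variation of the 50 genes was 2.75% in *sma-3*, 8.13% in wild-type and 7.23% in the labelled *sma-9* libraries, and over all tested genes it was 6.40%, 12.5% and 10.6%. Among the 14 lower genes, wild-type replicate 3 covered over 50% of the gap between the other wild-type libraries and *sma-3* for 6 (*dnj-13*, *bag-1*, *hsp-110*, *dnj-12*, *cct-7* and *dnj-30*). For 5 others (*dnj-27*, *dnj-9*, *dnj-7*, *dnj-22* and *dnj-11*) it was at or above the mean of the other wild-type libraries. With wild-type replicate 3 left out, 13 of the 14 were again called lower in *sma-3*, all except *dnj-7*, and 10 more joined them: *cct-2*, *cct-4*, *dnj-3*, *dnj-4*, *dnj-15*, *dnj-19*, *dnj-21*, *pfd-1*, *pfd-6* and *sti-1*.

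Moult and yolk genes also differed between the genotypes, and germline markers were not called. Of 7 moult-associated genes, 4 were lower in *sma-3* and 1 in the labelled *sma-9* libraries, beside 12.2% and 3.85% of all tested genes, with summed levels of 5465, 6684 and 5802 CPM for wild-type, 3841, 3889.9 and 3379 for *sma-3* and 5274, 4232 and 4104 for the labelled *sma-9* libraries. The sums of both mutants lay below every wild-type sum, with *sma-3* lowest. All 6 vitellogenin genes, which serve yolk production in the adult intestine, were higher in *sma-3*, beside 9.36% of all tested genes, and in *sma-3* they summed to 32, 46.4 and 52.4 CPM against 7.61, 11.9 and 3.72 in wild-type and 5.62, 3.11 and 10.45 in the labelled *sma-9* libraries. Of 10 germline markers, 9 were tested and 0 were called in either mutant against wild-type by limma. Among all tested genes, 21.5% were called in *sma-3* and 6.88% in the labelled *sma-9* libraries. At an unadjusted p of at most 0.05, 1 and 0 markers passed, beside 35.2% and 22.2% of all tested genes. The germline markers summed to 463, 383 and 326 CPM for wild-type, 355, 391.95 and 414 for *sma-3* and 460.2, 371 and 349.6 for the labelled *sma-9* libraries. The part of these differences in the chaperone levels was not tested.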

How the data were processed

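PolyA RNA of whole late L2 worms had been sequenced as paired ends in 9 libraries, 3 per genotype. Mapping to WS245 and gene counting had been done by the authors with STAR 2.5.1a, and they deposited log2 CPM values normalized with edgeR, with a prior of 2 reads. The treatment of strand and of reads matching several genes is not given in the sources used here. The prior was removed to recover CPM and reads (100% whole in every library, within 0.05 reads). Genes reaching 1 CPM in 3 or more libraries were tested on log2(CPM + 1) with limma 3.58.1 in R 4.3.3, with 1 coefficient per genotype, an intensity trend and two-sided p-values adjusted over all tested genes. Because the deposited values were log2, the log-scale test foreseen for such values was used. All p-values named as adjusted are from limma. Standard errors and 95% intervals share the spread of all 9 libraries. Names, positions and exon lengths came from WBcel235. Exons of 13 of the 50 genes overlapped another gene, none with at least 10% of exon bases in a gene at 1 CPM or more.

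Genes named were the singly named, *cct* and *pfd* genes, all called *dnj* genes and the 3 most abundant *dnj* genes not called. The remaining *dnj* genes and the genes of the marker lists were named beyond this rule after their values were seen. Genes in the closing observations were chosen likewise. The members and lists were chosen with earlier results of these data known. In the lists, 2 *hsp-16* names and *bag-6* were not matched and are not analysed here. The fit was also run on simulated counts, with the same spread set for all genes and genotypes and no deviating library. That run therefore does not bear on the unequal spreads or on wild-type replicate 3. Alternatives were other pseudocounts, filters, scalings, models and thresholds, a replicate block, and each library left out.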

Additional observations from a re-analysis of the deposited data

How the results depend on the processing

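Across all settings 0 calls changed direction. In *sma-3* against wild-type, 14 lower genes became 3 with an added 1.5-fold minimum and 8 with equal totals, and ranged from 5 to 23 with single libraries left out. The 1 higher gene became 0 with the 1.5-fold minimum, with the replicate block and with only the compared groups, and ranged from 0 to 1 with libraries left out. The median fold change was -0.11 with equal totals, which moved the median of all tested genes from -0.01 to 0.071, and -0.11 with quantile normalization. In the labelled *sma-9* libraries against wild-type, 0 lower genes ranged from 0 to 4 with libraries left out. The 1 higher gene became 0 with the 1.5-fold minimum, no filter, a mean of at least 5 CPM, the block, only the compared groups and a library-number term, 3 with quantile normalization (*cct-1*, *cct-5* and *cct-6*), and 0 to 1 with libraries left out. The median became 0.083 with equal totals. In *sma-3* against the labelled *sma-9* libraries, 9 lower and 1 higher became 0 and 0 with the 1.5-fold minimum, and ranged from 5 to 14 and from 0 to 1 with libraries left out. Apart from the fits without wild-type replicate 3, shares of all tested genes are not given for these alternatives. The causes were not tested.

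With the replicate number as a block, 11 lower and 0 higher genes were called in *sma-3* (*cct-7*, *dnj-7*, *dnj-18* and *dnj-24* lost), 0 and 0 in the labelled *sma-9* libraries, and 8 and 1 between the mutants. Deviations of same-numbered libraries correlated from -0.63 to 0.40, and 1 of the 9 libraries correlated best with its own number, so the numbers were not treated as pairs. Each value rested on at least 64 reads, and the effect of depth was not tested. With 3 libraries a group, single libraries decided many calls.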

Other observations

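Actin and tubulin are the main substrates of the CCT ring. Of 21 actin and tubulin genes, 3 (14.3%) were lower in *sma-3* than in wild-type (*act-3*, *tba-8* and *tbb-6*, log2 fold changes -0.32, -0.68 and -0.68), beside 12.2% of all tested genes, and 0 were higher by limma. In the labelled *sma-9* libraries, 3 (14.3%) were lower (*act-3*, *act-5* and *tba-4*, -0.33, -0.50 and -0.41), beside 3.85% of all tested genes. Their summed level was 11082, 10564 and 9568 CPM for wild-type, 10103, 10588 and 10633 for *sma-3* and 8881, 8736 and 8070.5 for the labelled *sma-9* libraries, the last being below all others. The actin genes are near-identical in sequence, and so are some tubulin genes, so the reads of single genes are uncertain.

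Of 7 myosin heavy chain genes, whose products include clients of UNC-45, 1 was lower in each mutant than in wild-type (14.3%), beside 12.2% of all tested genes in *sma-3* and 3.85% in the labelled *sma-9* libraries. In *sma-3* this was *nmy-1*, a non-muscle myosin gene, at 263, 335 and 294 CPM for wild-type, 239, 235.4 and 229 for *sma-3* and 333, 284 and 275 for the labelled *sma-9* libraries (log2 fold change -0.33, SE 0.10, adjusted p = 0.0488, limma). In the labelled *sma-9* libraries it was *myo-2* of the pharynx, at 556, 439 and 611 CPM for wild-type, 523, 533 and 541 for *sma-3* and 336, 323 and 221 for the labelled *sma-9* libraries (log2 fold change -0.88, SE 0.17, adjusted p = 0.0142, limma). *myo-2* and *myo-1*, the other pharyngeal myosin gene, were higher in *sma-3* than in the labelled *sma-9* libraries (log2 fold changes 0.88 and 0.77, adjusted p = 0.00822 and 0.0258, limma), beside 8.56% of all tested genes. Among the partners of HSP70, *unc-23*, encoding a BAG-domain protein, was at 227, 174 and 86.2 CPM for wild-type, 86.5, 90.9 and 88.9 for *sma-3* and 115, 111 and 101 for the labelled *sma-9* libraries. Wild-type replicates 1 and 2 were above all other libraries and replicate 3 was level with *sma-3*, and the difference was not called (log2 fold change -0.75, SE 0.28, adjusted p = 0.085, limma). *ahsa-1*, encoding the activator of the HSP90 ATPase, was at 202, 203 and 162 CPM for wild-type, 157, 160.3 and 155 for *sma-3* and 213, 217 and 208 for the labelled *sma-9* libraries, lower in *sma-3* than in the labelled *sma-9* libraries (log2 fold change -0.43, SE 0.09, adjusted p = 0.0115, limma) and not called against wild-type (adjusted p = 0.0711). *daf-41*, encoding the p23 co-chaperone of HSP90, was at 412, 410.3 and 326 CPM for wild-type, 334, 344 and 335 for *sma-3* and 454, 411 and 419.5 for the labelled *sma-9* libraries and gave the same pattern of calls (adjusted p = 0.0428 and 0.248, limma).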
